A study of Caenorhabditis elegans with 11 samples.

Results

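The col genes are the numbered cuticle collagen genes of Caenorhabditis elegans, taken here as every gene in the count table whose WormBase symbol begins with col-. There were 156 of them among 46772 listed genes, all protein-coding, out of 19698 protein-coding genes listed. RNA was sequenced from bulk early embryos, freed from young adults with hypochlorite and frozen, of cfp-1(tm6369), set-2(bn129) and sin-3(tm1276) mutants and of the wild-type strain (WT). There were 3 libraries of cfp-1, 3 of set-2, 2 of sin-3 and 3 of WT embryos, and each was made with a stranded kit from polyadenylated RNA of an independent biological replicate. The mutants carried no other listed allele, no treatment was applied, and every mutant was set against the same 3 WT libraries. CFP-1 is the CXXC-domain subunit of the SET-2 complex that methylates lysine 4 of histone H3, SET-2 is its methyltransferase, and SIN-3 is the scaffold of a histone deacetylase complex.

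Cuticle collagens are short secreted proteins with repeated Gly-X-Y triplets that assemble as trimers into the exoskeleton. The epidermis makes them in waves, once for the first cuticle late in embryogenesis and again before each moult, and many members are read mainly at one larval stage, in the dauer larva or in the adult. Early embryos precede the first cuticle, so the tissue measured here is one in which most of the family is known to be little used. Whole embryos were pooled for each library, so fewer cells of a type and less RNA per cell cannot be told apart in any value below.

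The libraries held between 21596949 and 35258557 counts. The mutated genes were counted at a reduced level in their own strains. The cfp-1 transcript had 43.6, 51.6 and 53.1 counts per 1000000 counts (CPM) in cfp-1 embryos, against 141, 143 and 140.1 in WT. The set-2 transcript had 95.3, 165 and 93.6 CPM in set-2 embryos, against 343, 271 and 324 in WT, and the sin-3 transcript had 132 and 148 in sin-3 embryos, against 361, 276 and 331 in WT. The library labelled set-2 replicate 2 stood apart from the other set-2 libraries, with a chi-square per gene of 80.5 and 91.4 against them, where those differed from each other by 12.2. Between cfp-1 libraries this value was 53.0 and 43.8 for replicate 1 and 26.9 for the others, and between WT libraries it was 48.0 and 25.1 for replicate 1 and 20.1 for the others. All calls of col genes were refitted without each library in turn.

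The family was spread over all 6 chromosomes, with 21 members on I, 24 on II, 12 on III, 41 on IV, 31 on V and 27 on X. Its genes were short, with a median exon length of 1020 bp against 1169 bp over all protein-coding genes, and a median of 2 separate exon blocks against 5. The shortest and longest members had 465 and 2960 bp of exon, and the longest was col-99.

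Of the 156 members, 13 had no count in any library and another 33 never exceeded 3 counts, the number taken here as the detection limit. A further 71 exceeded it in some libraries and 39 in every library. The 110 members above the limit in at least 1 library were 70.5% of the family, against 79.3% of all protein-coding genes. The 39 above it in every library were 25%, against 56.2% of all protein-coding genes. Most of the family was thus at or under the limit in at least 1 library.

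More col genes were detected in cfp-1 and set-2 embryos than in WT. In cfp-1 libraries 87, 72 and 78 members exceeded 3 counts, in set-2 libraries 81, 75 and 85, in sin-3 libraries 57 and 68, and in WT libraries 68, 60 and 61. The ranges of cfp-1 and of set-2 lay wholly above that of WT, while the sin-3 and WT ranges overlapped. With every library brought to the depth of the shallowest by calculation, the expected number was 72.6 ± 3.45 in cfp-1 embryos (SD, n = 3), 69.4 ± 0.43 in set-2 (SD, n = 3), 58.5 ± 2.17 in sin-3 (SD, n = 2) and 55.9 ± 4.01 in WT (SD, n = 3). Detection of protein-coding genes as a whole moved the same way, with 66.4% to 70.2% detected in cfp-1 embryos, 68.2% to 70.0% in set-2 embryos, 63.9% and 67.0% in sin-3 and 64.0% to 64.9% in WT. There were 33 members over the limit in mutant libraries only, 21.2% of the family, and 1 in WT only, 0.641% of it. Among all protein-coding genes 9.74% were over it in mutants only and 0.97% in WT only. The mutant strains had 8 libraries to the 3 of WT, so the counts of the mutant side and of WT are not on an equal footing, and they were not tested.

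Summed reads did not separate cfp-1 and set-2 embryos from WT as detection did. By their means the strains stood in the order set-2, cfp-1, WT and sin-3 for detected members and for summed reads alike. Summed over the family, col levels were 159, 179 and 133 CPM in cfp-1 embryos, 201, 270.3 and 166 in set-2 embryos, 118 and 121.04 in sin-3, and 199.7, 122 and 138.4 in WT. Set-2 replicate 2 was highest, WT replicate 1 was close to set-2 replicate 1, and the cfp-1 and set-2 ranges overlapped that of WT, and both sin-3 libraries were below every WT library, the nearer by under 1 CPM. The single gene col-99 held 18.3% to 37.4% of these reads in each library.

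**Figure D1:**
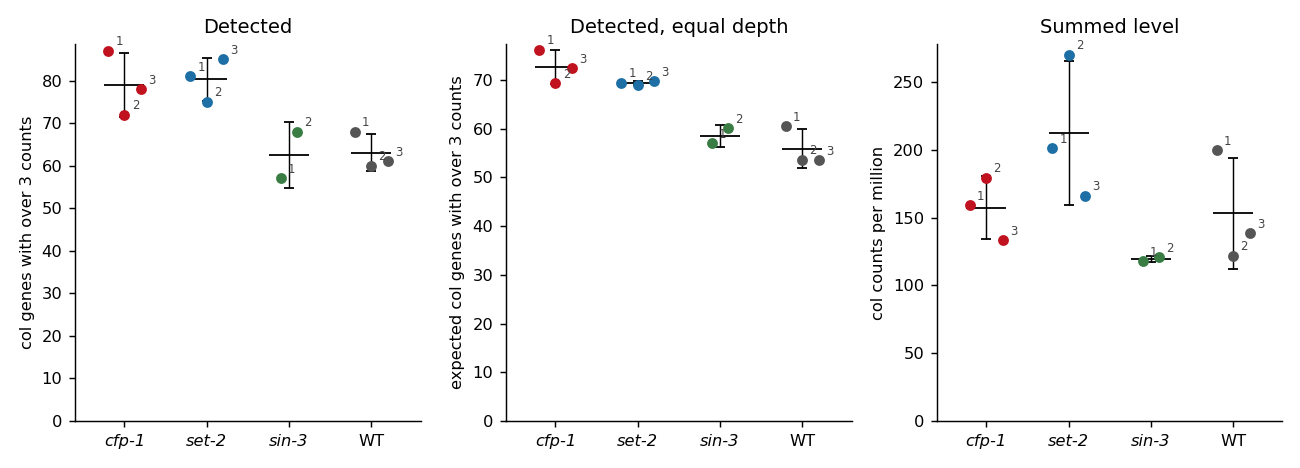
The col genes per library, with strains on the x axis, points numbered by replicate and a bar at the mean with 1 SD. The left panel counts members with over 3 counts, the middle panel gives the number expected at the depth of the shallowest library, and the right panel gives summed CPM. In the middle panel cfp-1 (72.6 ± 3.45) and set-2 (69.4 ± 0.43) lie above WT (55.9 ± 4.01).

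Per kilobase of exon and 1000000 counted reads, the highest mean levels over the 11 libraries were those of col-121 (17.1), col-99 (16.0), col-76 (11.7), col-97 (7.58) and col-111 (6.45). Some members known for a later stage were near 0. Col-12 and col-13, a tandem pair 1996 bp apart on chromosome V, had at most 2 counts in a library, and so did the adult collagen col-7. The adult collagen col-19 had 0 to 4 counts. Col-40 had 1 to 18 counts and was not tested because of its low mean. Reads of near-identical members such as col-12 and col-13 may have been divided between them or lost, since reads with a low mapping score were removed.

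The 46 members with a mean normalized count above 10 were tested, within the 11547 protein-coding genes that passed this filter. A normalized count is a count scaled to a library of mean size with edgeR's TMM factors. The other 110 members had a lower mean and were not tested. Since a member could pass this filter through one strain alone, counts over the 46 do not describe the whole family. Libraries of a mutant did not overlap those of WT for 40.3% (cfp-1), 35.2% (set-2) and 60.8% (sin-3) of all genes tested. Among the 46 members this held for 16, 20 and 22. Non-overlap of libraries, given below for single members, was thus common among all genes.

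Col-99 encodes a transmembrane collagen with a known role in axon guidance rather than a cuticle collagen, in spite of its name. It lies on the reverse strand of chromosome IV, from 137974 to 147919 in WBcel235. Its normalized counts were 1185, 1189 and 822 in cfp-1 embryos, 1342, 2724 and 1205 in set-2 libraries, and 636 and 799 in sin-3, against 1933, 1224 and 1553 in WT. Both sin-3 libraries lay below every other library. The log2 fold change over WT was -1.13 ± 0.33 (SE) in sin-3, with an adjusted p of 0.0274, and -0.56 in cfp-1 and 0.16 in set-2 embryos, which did not pass. All adjusted p-values here and below come from edgeR's quasi-likelihood test over all 11547 genes with Benjamini-Hochberg adjustment. The sin-3 call was lost without sin-3 replicate 1 (adjusted p = 0.199), sin-3 replicate 2 (0.0952), WT replicate 1 (0.0795) or WT replicate 3 (0.0538). Col-99 overlaps daf-1 on the opposite strand by 108 bp of exon, and the strand setting used in counting is not given in the sources used here. Exons of col-2, col-71 and col-84 also overlap an ncRNA on the opposite strand, by 103, 105 and 102 bp. Those ncRNAs had 0, 3 and 132 counts over all libraries. Col-84 also overlaps npp-3, with no shared exon, on the opposite strand, and npp-3 had 143813 counts to 378 of col-84. Of the other abundant members, col-121 overlaps daf-15 there by 107 bp, col-111 overlaps psr-1 by 60 bp and col-97 overlaps ZK1010.12 by 37 bp. Daf-15 had 104680 counts over all libraries to 6316 of col-121, and psr-1 had 26481 to 2836 of col-111.

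Col-121 and col-76 varied widely between replicates of a strain. Col-121 had normalized counts of 311, 667 and 201 in cfp-1 embryos, 991, 1132 and 643 in set-2 libraries, and 299 and 389 in sin-3, against 959, 309 and 321 in WT. Col-76 had 340.4, 585 and 192 in cfp-1 embryos, 782, 1268 and 585 in set-2 libraries, and 245 and 378 in sin-3, against 833, 292 and 348 in WT. For both genes WT replicate 1 lay among the set-2 libraries and far above the other WT libraries, and neither was called against WT in any mutant. Their log2 fold changes over WT in set-2 were 0.80 ± 0.47 for col-121 and 0.84 ± 0.45 for col-76 (SE, adjusted p = 0.26 and 0.22). Col-111 varied less, from 204 to 306 in cfp-1 embryos, 222 to 261 in set-2 embryos and 207 to 217 in sin-3, against 272 to 364 in WT, and was not called.

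The summed markers of muscle and of epidermis were highest in set-2 replicate 2 and WT replicate 1, where col-121 and col-76 were also high. The 10 body wall muscle markers summed to 75.1, 134 and 57.0 CPM in cfp-1 embryos, 141, 285 and 103 in set-2 libraries, and 57.1 and 95.6 in sin-3, against 145, 45.6 and 57.9 in WT, and tnt-2 alone of them was at or under 3 counts in every library. The 9 epidermal markers found summed to 576 to 772 in cfp-1 embryos, 773 to 1295 in set-2 libraries, and 656 and 697 in sin-3, against 675 to 1034 in WT. Set-2 replicate 2 had the highest sum and WT replicate 1 the second highest in both lists. The largest part of the epidermal sum in these libraries was dlg-1, at 445 and 379 CPM. Nhr-23 alone of the epidermal markers was not highest in set-2 replicate 2, at 62.9 CPM there and 85.5 and 78.0 in sin-3. None of the 9 muscle genes tested was called against WT in any mutant. Adult intestine markers, the vitellogenins, summed to 0.843 to 2.78 CPM over all libraries. The part of muscle, epidermis or embryo age in the levels of the col genes was not tested.

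**Figure D2:**
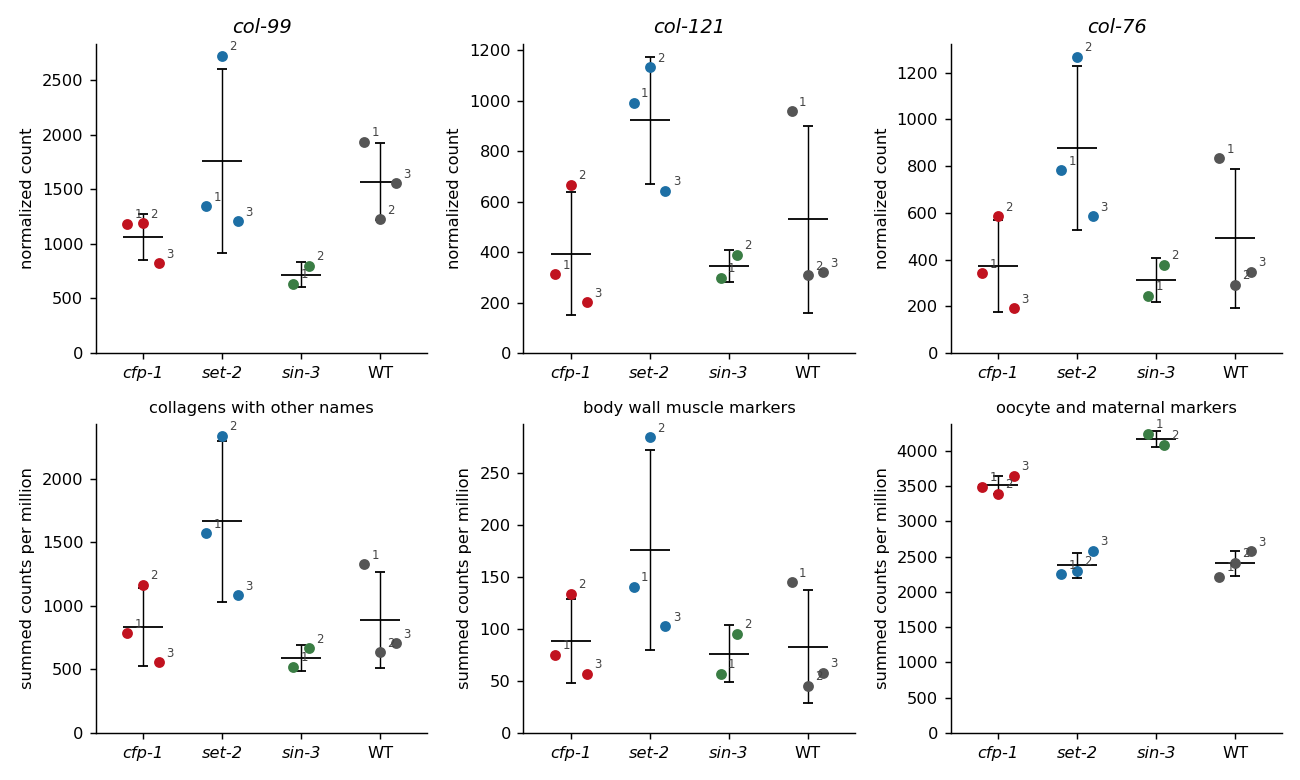
The most abundant col genes and marker lists per library, with strains on the x axis, points numbered by replicate and a bar at the mean with 1 SD. The upper panels give normalized counts of col-99, col-121 and col-76, where set-2 replicate 2 is highest and WT replicate 1 the second or the third highest, and the lower panels give summed CPM of collagens with other names, muscle markers and maternal markers, where only the last separates cfp-1 and sin-3 from set-2 and WT.

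Against WT, 15 of the 46 tested members passed in at least 1 mutant. Of these, 3 passed in all mutants, 4 in a pair of mutants and 8 in a single mutant, and the mutants share their WT libraries. In cfp-1 embryos 5 members were called higher, where 12.7% of all genes tested were, and 1 was called lower, where 11.4% were. In set-2 embryos 7 were called higher (7.4% of all genes) and 3 lower (7.04%). In sin-3 embryos 4 were called higher (12.6%) and 5 lower (12.6%). As shares of the 46 these were 10.9% and 2.17% in cfp-1 embryos, 15.2% and 6.52% in set-2 embryos, and 8.7% and 10.9% in sin-3. The share called lower in cfp-1 was below that of all genes and the share called higher in set-2 was above it, but without set-2 replicate 2 only 2 members were called higher and 5 lower in set-2. The count higher in set-2 was 3 without set-2 replicate 1 and 2 without WT replicate 2 or WT replicate 3. Over all genes tested, calls in set-2 went from 1668 to 846, 945 and 660 in those refits. Without set-2 replicate 2 they were 1684. In sin-3, the count lower was 2 without WT replicate 1 or WT replicate 2 and 3 without WT replicate 3. Over all genes tested, calls in sin-3 went from 2906 to 2045, 1966 and 2259 in those refits. Leaving out either sin-3 library left 1 library of that strain, and fewer members and fewer genes passed. The count lower in cfp-1 was 2 without set-2 replicate 2 or WT replicate 1. The median log2 fold change of the 46 was 0.34 in cfp-1 embryos, 0.16 in set-2 embryos and -0.19 in sin-3, beside -0.00, -0.02 and -0.03 over all genes.

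**Figure D3:**
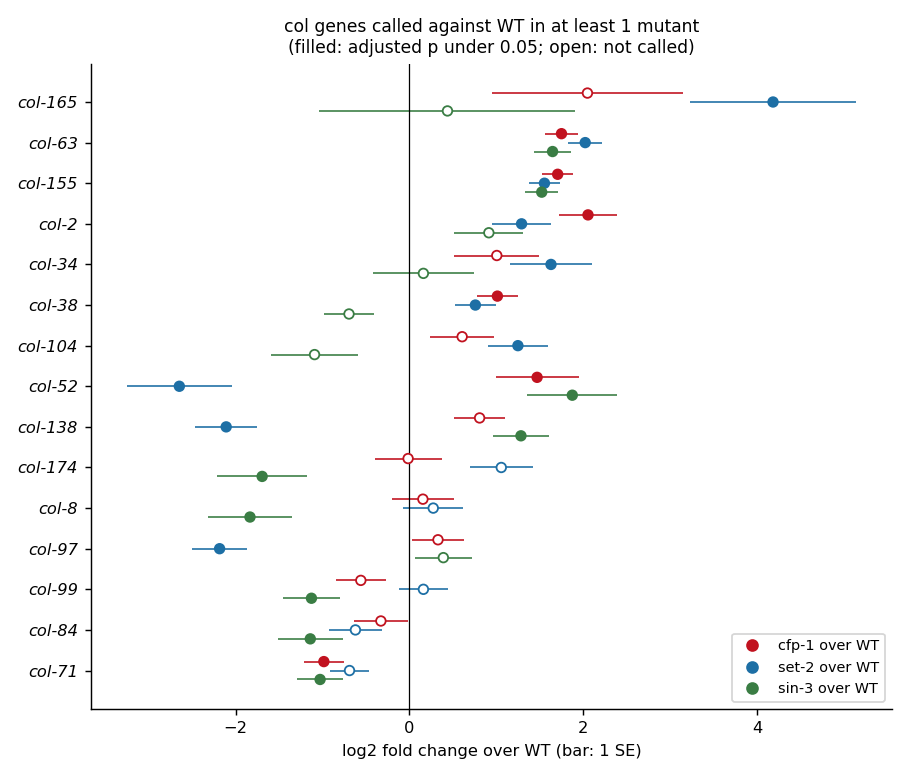
Log2 fold change over WT with 1 SE for the 15 col genes called in at least 1 mutant, ordered by their mean over the mutants. Filled points passed an adjusted p of 0.05 and open points did not; col-63 and col-155 lie between 1.52 and 2.02 in all mutants, while col-52 lies at 1.47 in cfp-1 embryos, -2.65 in set-2 embryos and 1.87 in sin-3.

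Col-63 and col-155 were higher in all mutants. Col-63 lies on the reverse strand of chromosome I from 8243694 to 8244963, and col-155 on the reverse strand of chromosome V from 11388852 to 11389876. Col-63 had normalized counts of 311, 197 and 255 in cfp-1 embryos, 306, 274 and 344 in set-2 libraries, and 241 and 234 in sin-3, against 78.2, 71.1 and 78.1 in WT. No mutant library came near the WT libraries, which agreed closely. Its log2 fold change over WT was 1.75 ± 0.19 in cfp-1 embryos, 2.02 ± 0.19 in set-2 embryos and 1.65 ± 0.21 in sin-3 (SE, adjusted p = 0.000147, 0.0001 and 0.0005).

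Col-155 had normalized counts of 182, 151 and 162 in cfp-1 embryos, 137, 147 and 161 in set-2 libraries, and 145 and 145 in sin-3, against 47.1, 51.2 and 53.1 in WT. The mutant libraries formed one narrow band above the WT libraries. Its log2 fold change over WT was 1.70 ± 0.18 in cfp-1 embryos, 1.55 ± 0.18 in set-2 embryos and 1.52 ± 0.19 in sin-3 (SE, adjusted p = 0.000101, 0.000376 and 0.000493). Neither gene was called in a direct comparison of mutants. Both kept their calls in every leave-one-out refit, and without set-2 replicate 2 the set-2 values were 2.10 for col-63 and 1.56 for col-155.

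Col-2, a collagen known from the dauer larva, was at 28.1, 23.9 and 33.7 normalized counts in cfp-1 embryos, 17.2, 19.97 and 13.6 in set-2 libraries, and 13.7 and 12.2 in sin-3, against 6.43, 5.69 and 8.34 in WT. Every mutant library lay above every WT library. It lies on the reverse strand of chromosome IV from 10084439 to 10085451. The fold change over WT on the log2 scale was 2.05 ± 0.33 in cfp-1 (SE, adjusted p = 0.0015) and 1.29 ± 0.34 in set-2 (0.0273), and in sin-3 it was 0.91 ± 0.40, which did not pass (0.111). The set-2 call was lost without set-2 replicate 1 (adjusted p = 0.0694), set-2 replicate 2 (0.061) or any of the WT replicates (0.0564, 0.0831 and 0.0596), and with DESeq2 (0.0753).

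Col-71, on chromosome II from 3500077 to 3502570, was the one tested member with lower calls in a pair of mutants. It had 54.4, 53.8 and 48.9 normalized counts in cfp-1 embryos, 51.5, 83.0 and 59.1 in set-2 libraries, and 46.6 and 54.6 in sin-3, against 89.97, 103 and 118 in WT. All mutant libraries lay below all WT libraries. Its log2 fold change over WT was -0.98 ± 0.23 in cfp-1 (SE, adjusted p = 0.00993) and -1.03 ± 0.26 in sin-3 (0.0157), and in set-2 it was -0.69 ± 0.22 (0.0594). The sin-3 call was lost without sin-3 replicate 1 (0.136) or sin-3 replicate 2 (0.0785).

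**Figure D4:**
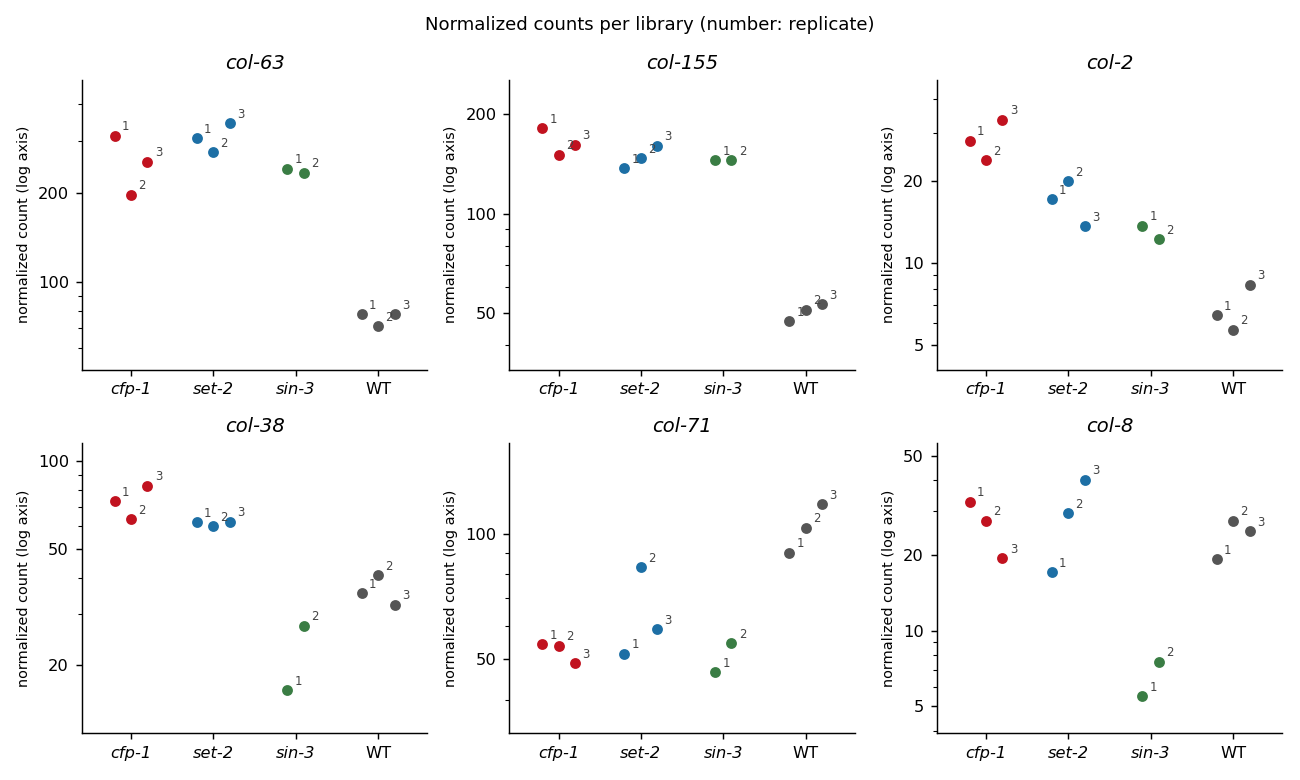
Normalized counts of 6 col genes per library on log axes, with strains on the x axis and points numbered by replicate. The mutant libraries of col-63, col-155 and col-2 all lie above the WT libraries and those of col-71 below them, whereas in col-38 and col-8 the sin-3 libraries lie below those of the other mutants.

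A group of members split the mutants, with col-97, col-138 and col-52 low in set-2 embryos and at or above the WT level in cfp-1 and sin-3 embryos. Col-97, on the reverse strand of chromosome III from 12992405 to 12993707, had 237, 456 and 376 normalized counts in cfp-1 embryos, 66.1, 38.9 and 80.3 in set-2 libraries, and 432 and 312 in sin-3, against 277, 214 and 358 in WT. The set-2 libraries stood alone below all others. Against WT the log2 fold change was -2.18 ± 0.32 in set-2 (SE, adjusted p = 0.0016) and -1.94 without set-2 replicate 2 (0.00304), and it was 0.33 in cfp-1 and 0.39 in sin-3, which did not pass.

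Col-138, a gene with a single exon on the reverse strand of chromosome IV from 17182884 to 17183729, had 42.2, 43.1 and 46.7 normalized counts in cfp-1 embryos, 5.15, 3.15 and 8.33 in set-2 libraries, and 67.2 and 55.6 in sin-3, against 19.3, 24.6 and 31.3 in WT. The strains did not overlap. Its log2 fold change over WT was -2.11 ± 0.36 in set-2 (SE, adjusted p = 0.00361), 1.28 ± 0.32 in sin-3 (0.0136) and 0.81 ± 0.30 in cfp-1 (0.0656). Without set-2 replicate 2 the set-2 value was -1.86 (0.00848). The sin-3 call was lost without sin-3 replicate 1 (0.103) or sin-3 replicate 2 (0.0568).

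Col-52, on the reverse strand of chromosome I from 4571192 to 4575038, had 38.4, 145 and 120.5 normalized counts in cfp-1 embryos, 6.87, 1.05 and 8.33 in set-2 libraries, and 149 and 118 in sin-3, against 43.9, 23.7 and 41.7 in WT. Cfp-1 replicate 1 lay within the WT range, the other cfp-1 libraries lay with the sin-3 libraries, and set-2 was lowest. On the log2 scale the fold change over WT was 1.47 ± 0.48 in cfp-1 (SE, adjusted p = 0.0431), -2.65 ± 0.60 in set-2 (0.0138) and 1.87 ± 0.52 in sin-3 (0.0211). The set-2 value was -2.23 without set-2 replicate 2 (0.0279), and the set-2 call was lost without WT replicate 3 (0.0521). The sin-3 call was lost without sin-3 replicate 1 (0.12), sin-3 replicate 2 (0.0732) or WT replicate 2 (0.0696). The cfp-1 call was lost in 8 of 11 leave-one-out refits, with adjusted p from 0.0563 to 0.131, and held only without cfp-1 replicate 1, set-2 replicate 2 or set-2 replicate 3.

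Col-88, which has a single exon at the left end of chromosome III from 41063 to 41971, was likewise lowest in set-2, without a call against WT. It had 120.96, 149 and 153 normalized counts in cfp-1 embryos, 42.9, 4.20 and 46.2 in set-2 libraries, and 123 and 106 in sin-3, against 79.3, 68.2 and 96.9 in WT. All cfp-1 and sin-3 libraries lay above the WT range and all set-2 libraries below it, though such separation was common among all genes tested.

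**Figure D5:**
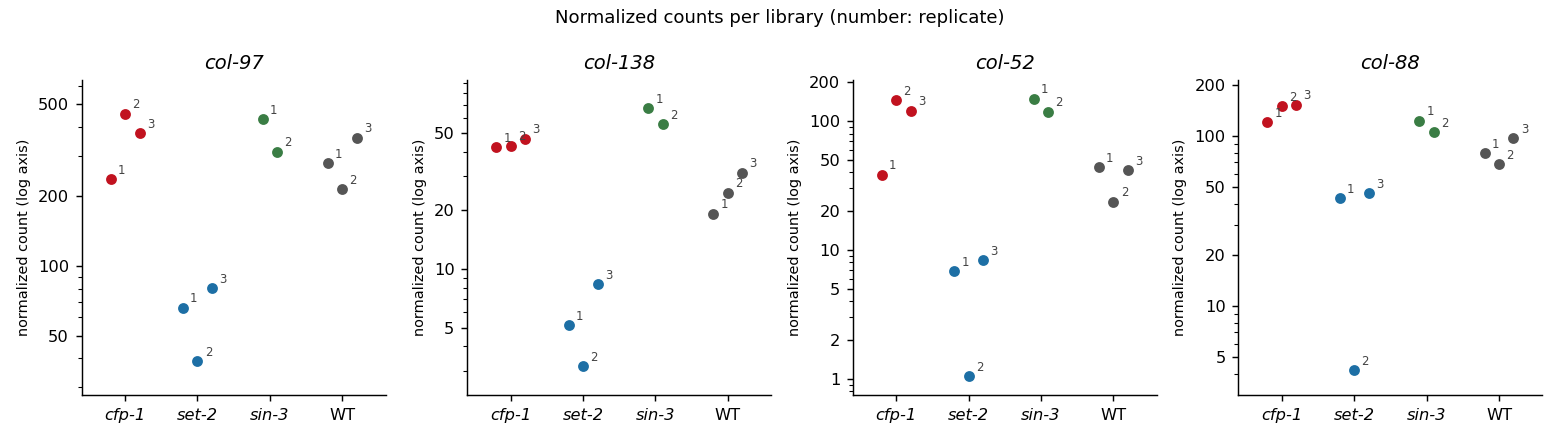
Normalized counts of col-97, col-138, col-52 and col-88 per library on log axes, with strains on the x axis and points numbered by replicate. The 3 set-2 libraries are the lowest of the 11 in each panel, and set-2 replicate 2 is the lowest of them, at 38.9, 3.15, 1.05 and 4.20.

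The direct comparison of cfp-1 with set-2 called 4 members higher in cfp-1 embryos, where 12.6% of all genes tested were, and 1 lower, where 9.52% were. The 4 were col-52 (log2 difference 4.11 ± 0.58), col-138 (2.91 ± 0.35), col-97 (2.51 ± 0.32) and col-88 (2.14 ± 0.49), with SE given and adjusted p of 0.00146, 0.000535, 0.000808 and 0.0118. Without set-2 replicate 2 the same differences were 3.70, 2.67, 2.27 and 1.66, and all passed. The member called lower was col-68, at 15.9, 19.1 and 7.60 normalized counts in cfp-1 embryos, against 26.6, 27.3 and 43.9 in set-2. Its log2 difference of -1.20 ± 0.39 (SE, adjusted p = 0.045) was lost in 8 of 11 leave-one-out refits, with adjusted p from 0.052 to 0.177, and held only without cfp-1 replicate 2, WT replicate 1 or WT replicate 2. With DESeq2 it did not pass (0.0524).

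The same 4 members were called lower in set-2 than in sin-3 embryos, where 20.7% of all genes tested were. Their log2 differences were -4.52 ± 0.61 for col-52, -3.39 ± 0.36 for col-138, -2.57 ± 0.34 for col-97 and -1.84 ± 0.53 for col-88 (SE, adjusted p = 0.000474, 0.000153, 0.000435 and 0.0177). Without set-2 replicate 2 they were -4.10, -3.14, -2.33 and -1.35, and all passed. The call of col-88 was lost without sin-3 replicate 1 (0.0927) or sin-3 replicate 2 (0.0631). Beside these values, the 10 oocyte and maternal markers summed to 3395 to 3646 CPM in cfp-1 embryos, 2255 to 2585 in set-2 libraries, and 4246 and 4086 in sin-3, against 2215 to 2578 in WT. Of them 6 were called higher in cfp-1 embryos, 10 in sin-3 and 0 in set-2 over WT, and none was at or under 3 counts in every library. The part of maternal RNA in these differences was not tested.

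Other members were lower in sin-3 than in the other mutants. The comparison of cfp-1 with sin-3 called 3 members higher in cfp-1 embryos, where 6.24% of all genes tested were, and none lower, where 5.34% were. That count of 0 comes from edgeR, with 0 members at an unadjusted p under 0.05 in that direction and 0 called by DESeq2, which gave no adjusted p for 23 of the 46 members in this comparison. The comparison of set-2 with sin-3 called 11 members higher in set-2 embryos, where 19.9% of all genes were. Leaving out set-2 replicate 2 gave 6 in place of these 11, set-2 replicate 1 or sin-3 replicate 2 gave 7, and sin-3 replicate 1 gave 3. In place of the 3 higher in cfp-1 over sin-3 there was 1 without cfp-1 replicate 1 or sin-3 replicate 2, none without sin-3 replicate 1 and 5 without set-2 replicate 2.

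Col-38, on chromosome II from 8568035 to 8569088, had 73.1, 63.4 and 82.5 normalized counts in cfp-1 embryos, 61.8, 59.9 and 62.1 in set-2 libraries, and 16.5 and 27.3 in sin-3, against 35.3, 40.8 and 32.3 in WT. The cfp-1 and set-2 libraries lay above WT and the sin-3 libraries below it. Its log2 fold change over WT was 1.01 ± 0.24 in cfp-1 (SE, adjusted p = 0.0097) and 0.76 ± 0.23 in set-2 (0.0496). The set-2 call was lost in 9 of 11 leave-one-out refits, with adjusted p from 0.0521 to 0.172, and held only without cfp-1 replicate 1 or sin-3 replicate 1. With DESeq2 it did not pass (0.0619). The direct differences were 1.71 ± 0.29 for cfp-1 over sin-3 (adjusted p = 0.00435) and 1.45 ± 0.28 for set-2 over sin-3 (0.00276), and the first was lost without sin-3 replicate 1 (0.066). The second was 1.47 without set-2 replicate 2 (0.004).

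Col-8, on chromosome III from 7019583 to 7020600, had 32.8, 27.5 and 19.5 normalized counts in cfp-1 embryos, 17.2, 29.4 and 40.1 in set-2 libraries, and 5.48 and 7.54 in sin-3, against 19.3, 27.5 and 25.01 in WT. Only the sin-3 libraries stood apart. In sin-3 the log2 fold change over WT was -1.83 ± 0.49 (SE, adjusted p = 0.0178), and the call was lost without sin-3 replicate 1 (0.132), sin-3 replicate 2 (0.0914) or WT replicate 2 (0.0526). The direct differences were 1.99 ± 0.48 for cfp-1 over sin-3 (0.0228) and 2.11 ± 0.48 for set-2 over sin-3 (0.00562). The first was lost without cfp-1 replicate 1 (0.067), sin-3 replicate 1 (0.155) or sin-3 replicate 2 (0.163), and the second without sin-3 replicate 1 (0.0561). The second was 2.10 without set-2 replicate 2 (0.00879).

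Col-104, on chromosome IV from 1353636 to 1355305, had 13.1, 13.2 and 17.4 normalized counts in cfp-1 embryos, 25.8, 26.3 and 16.7 in set-2 libraries, and 2.74 and 5.65 in sin-3, against 8.57, 8.53 and 11.5 in WT. The strains stood in the order sin-3, WT, cfp-1 and set-2 by their means, with cfp-1 and set-2 overlapping. Its log2 fold change over WT was 1.25 ± 0.35 in set-2 (SE, adjusted p = 0.0336), and this call was lost without set-2 replicate 1 (0.101), set-2 replicate 2 (0.0691) or any of the WT replicates (0.0714, 0.0933 and 0.074), and with DESeq2 (0.0901). The differences from sin-3 were 1.70 ± 0.48 for cfp-1 (0.0411) and 2.34 ± 0.46 for set-2 (0.00283), or 2.23 without set-2 replicate 2 (0.00544). The cfp-1 difference was lost in 7 of 11 leave-one-out refits, with adjusted p from 0.0508 to 0.229, and held without cfp-1 replicate 2, set-2 replicate 2, set-2 replicate 3 or WT replicate 1.

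Col-174, on the X chromosome from 7546809 to 7548365, had 17.8, 29.9 and 17.4 normalized counts in cfp-1 embryos, 37.8, 69.4 and 30.3 in set-2 libraries, and 5.48 and 7.54 in sin-3, against 26.8, 20.9 and 17.7 in WT. Its libraries were lowest in sin-3 and highest in set-2 embryos, with no overlap between these strains or between either and WT. The log2 fold change over WT was -1.69 ± 0.52 in sin-3 (SE, adjusted p = 0.0326), and set-2 exceeded sin-3 by 2.75 ± 0.50 (0.00191), or 2.34 without set-2 replicate 2 (0.00262). The call against WT was lost without sin-3 replicate 1 (0.181), sin-3 replicate 2 (0.13), WT replicate 1 (0.083) or WT replicate 2 (0.0636). Col-84, on chromosome II from 11868534 to 11869682, had 16.5 and 24.5 normalized counts in sin-3, against 46.1, 53.1 and 38.6 in WT, a log2 fold change of -1.14 ± 0.37 (adjusted p = 0.0423). This call was lost in 8 of 11 leave-one-out refits, with adjusted p from 0.053 to 0.262, and held only without cfp-1 replicate 1, cfp-1 replicate 2 or set-2 replicate 2. With DESeq2 it did not pass (0.0535).

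Col-165 and col-34 were called higher in set-2 embryos on unequal libraries. Col-165, on the X chromosome from 4353618 to 4354852, had 18.9, 107 and 13.6 normalized counts in set-2 embryos, against 5.36, 0 and 2.08 in WT. It had 9.38, 9.57 and 11.9 in cfp-1 embryos, all above WT, and 1.37 and 4.71 in sin-3, with no call in either. Set-2 replicate 2 held most of the set-2 counts. The log2 fold change was 4.18 ± 0.95 (SE, adjusted p = 0.0141). Without set-2 replicate 2 the mean of col-165 was too low to be tested, and the call was lost without WT replicate 2 (0.0514) or WT replicate 3 (0.066). Col-34, on chromosome IV from 4243545 to 4244610, had 29.2, 52.5 and 20.4 normalized counts in set-2 embryos, against 10.7, 14.2 and 7.29 in WT. In cfp-1 embryos it had 30.9, 10.8 and 22.8, and in sin-3 9.60 and 14.1, with no call in either. Its log2 fold change over WT in set-2 was 1.63 ± 0.47 (adjusted p = 0.0386), and 1.19 without set-2 replicate 2 (0.101). The set-2 call was lost in 8 of 11 leave-one-out refits, with adjusted p from 0.0527 to 0.148. It held only without cfp-1 replicate 1, cfp-1 replicate 2 or set-2 replicate 3.

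Some members below the filter were counted in mutants and near 0 in WT. Col-108 had 27, 6 and 6 counts in cfp-1 embryos, 5, 2 and 9 in set-2 libraries, and 9 and 7 in sin-3, against 1, 1 and 0 in WT. Set against a limit of 3 counts for each WT library, its mean in cfp-1 was 4.45-fold that limit, and 2.28-fold without cfp-1 replicate 1. Col-172 had 16, 11 and 11 counts in set-2 embryos, against 2, 1 and 3 in WT, 4.04-fold the limit. In cfp-1 embryos it had 7, 5 and 5 counts, 2.025-fold the limit. Col-135 had 15, 5 and 6 counts in cfp-1 embryos, against 0, 2 and 1 in WT, 3.02-fold the limit. Without cfp-1 replicate 1 that value was 2.08-fold. In set-2 embryos col-135 had 5, 4 and 8 counts, 1.74-fold the limit. In all, 7 members were over the limit in every library of a mutant and at or under it in every WT library, 6 of them in cfp-1 embryos, 3 in set-2 embryos and 2 in sin-3. The 7 were 4.49% of the family, beside 2.675% of all protein-coding genes that met the same rule. By strain the shares were 3.85% beside 1.08% in cfp-1, 1.92% beside 1.55% in set-2 and 1.28% beside 1.13% in sin-3, so set-2 and sin-3 were near the share of all genes. The limit of 3 counts was chosen, not estimated from the WT counts. The fold values do not allow for counting error in the mutant libraries or for the spread between replicates.

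Genes that work with the col family were described from lists chosen by name. Among 20 collagen genes with other names, which include the dpy, sqt, rol and bli genes known for body shape, 10 were tested. In cfp-1 embryos 2 of them were called higher, in set-2 embryos 1 was, and in sin-3 embryos 1 was called lower. The genes were dpy-9 (log2 fold change 1.32 ± 0.38 in cfp-1 and 1.53 ± 0.37 in set-2), bli-2 (2.00 ± 0.44 in cfp-1) and rol-8 (-1.17 ± 0.31 in sin-3), with SE given and adjusted p of 0.0243, 0.0178, 0.00711 and 0.0187. The set-2 value of dpy-9 was 1.31 without set-2 replicate 2 (0.0427). The list was led by dpy-17, dpy-14 and sqt-3 and summed to 556 to 1165 CPM in cfp-1 embryos, 1082 to 2337 in set-2 libraries, and 520 and 664 in sin-3, against 637 to 1324 in WT. The median log2 fold change of its tested genes was -0.14 in cfp-1 embryos, 0.95 in set-2 embryos and -0.43 in sin-3.

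Of 15 genes for collagen modification and processing, 12 were tested. The prolyl hydroxylase subunit phy-2 was lower in cfp-1 (log2 fold change -0.78 ± 0.26, SE, adjusted p = 0.0445) and sin-3 (-0.95 ± 0.29, 0.0339), and the tetraspanin tsp-15 was lower in sin-3 (-1.72 ± 0.39, 0.00921). No other gene of the list was called against WT in either direction. Of 10 cuticlins and other apical matrix genes, 9 were tested, and the cuticlins cut-2, cut-3, cut-5 and cut-6 were higher in set-2 embryos, at log2 fold changes of 4.33 ± 0.87, 4.20 ± 1.00, 2.69 ± 0.44 and 3.25 ± 0.79 (SE, adjusted p = 0.00822, 0.0172, 0.00321 and 0.0192). Cut-2 had 1.48, 6.64 and 0.709 CPM in set-2 embryos, against 0.1897, 0.0648 and 0.139 in WT, so that set-2 replicate 2 was again highest. Without it the values were 2.87 for cut-2 (adjusted p = 0.00765), 2.74 for cut-3 (0.037) and 2.30 for cut-5 (0.00595), and cut-6 was too low to be tested. Cut-5 was also higher in cfp-1 (1.90 ± 0.46, adjusted p = 0.0119). None of the 4 basement membrane and other collagens was called, and emb-9 and let-2, the type IV collagens, were highest in set-2 replicate 2 and WT replicate 1, as the muscle markers were, with let-2 at 57.0, 122 and 30.8 CPM in cfp-1 embryos, 87.8, 263 and 71.8 in set-2 libraries, and 45.7 and 76.2 in sin-3, against 144, 37.1 and 61.8 in WT.

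Among the 9 tested epidermal markers, the GATA factor elt-1, which specifies the epidermis, was lower in cfp-1 (log2 fold change -0.68 ± 0.13, SE, adjusted p = 0.0034) and sin-3 (-0.84 ± 0.15, 0.00238). The nuclear receptor nhr-23, known for its part in moulting, was higher in sin-3 (0.60 ± 0.16, adjusted p = 0.0198). No epidermal marker was called in set-2. Of the 10 zygotic factors, such as the muscle factor hlh-1 and the endoderm factor elt-2, 7 were lower in cfp-1 embryos, 7 in sin-3 and 0 in set-2 embryos, with median log2 fold changes of -0.55, -0.68 and -0.14. They summed to 177 to 218 CPM in cfp-1 embryos, 258 to 350.3 in set-2 libraries, and 173 and 168 in sin-3, against 266 to 309 in WT. The part of these shifts in the calls of the col genes was not tested.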

How the data were processed

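RNA-seq counts of 11 libraries were analysed, grouped by the genotype in the labels. The authors mapped reads to WS254 with STAR 2.4.1d, removed reads below a mapping score of 10 with SAMtools 0.1.19, counted reads per gene with HTSeq 0.7.2 (versions from the submitters' processing notes) and deposited raw counts, without normalization. Their tables of each mutant's fold changes and p-values were not used. Symbols were found for 43767 of 46772 identifiers, and biotypes, positions and exon lengths were taken from Ensembl's WBcel235 annotation. Identifiers with no symbol held 0.767% of the counts.

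Tests used edgeR 4.0.16 in R 4.3.3, in one quasi-likelihood model with a mean per strain, on the 11547 protein-coding genes whose mean normalized count (TMM factors) exceeded 10. A call is a Benjamini-Hochberg adjusted p under 0.05, and an SE is the log2 fold change over the square root of F. The paper's methods give the same filter with DESeq2, which was run here (1.42.0) as an alternative. The code was tested on simulated data. Detection means over 3 counts in a library, which covers counting error only, since amplified copies were not told from molecules.

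The members and gene lists were chosen with earlier results of these data known. Named genes are members called against WT or between mutants, the 5 highest per kilobase, and col-2, col-7, col-12, col-13, col-19, col-40 and col-99; col-108, col-135, col-137, col-158 and col-172 were chosen after their values were seen. List genes were named where called, and dpy-17, dpy-14, sqt-3, emb-9 and let-2 for their levels. Alternatives were other scaling factors, filters and thresholds, DESeq2, fits of only 2 strains, replicate blocks and leaving out each replicate. The refit of list genes without set-2 replicate 2, and folds over the limit of 3 counts without each library, were chosen after seeing the data. Summaries and plots used Python 3.11.15 with pandas 2.3.3 and matplotlib 3.10.9.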

Additional observations from a re-analysis of the deposited data

Results flagged for a closer look

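Mutants differed from each other in 23 direct tests of col genes, all with edgeR's quasi-likelihood test and an adjusted p under 0.05. The members called thus did not respond alike in all mutants. For cfp-1 over set-2, 8.7% of the 46 tested members were higher and 2.17% lower, beside 12.6% and 9.52% of all genes tested. For cfp-1 over sin-3 the shares were 6.52% and 0%, beside 6.24% and 5.34%. For set-2 over sin-3 they were 23.9% and 8.7%, beside 19.9% and 20.7%.

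For cfp-1 over set-2 the log2 differences were 4.11 for col-52, 2.91 for col-138, 2.51 for col-97, 2.14 for col-88 and -1.20 for col-68. For cfp-1 over sin-3 they were 1.71 for col-38, 1.99 for col-8 and 1.70 for col-104. For set-2 over sin-3 the negative values were -4.52 for col-52, -3.39 for col-138, -2.57 for col-97 and -1.84 for col-88.

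The positive values for set-2 over sin-3 were 3.74 for col-165, 2.75 for col-174, 2.34 for col-104, 2.11 for col-8, 1.74 for col-176, 1.51 for col-53, 1.49 for col-76, 1.47 for col-34, 1.45 for col-38, 1.41 for col-180 and 1.29 for col-99. Col-180, col-76, col-53, col-34 and col-176 were not called without set-2 replicate 2, with adjusted p of 0.0957, 0.0994, 0.0797, 0.129 and 0.0875. They were also lost without sin-3 replicate 1, with adjusted p of 0.0516, 0.232, 0.257, 0.221 and 0.112.

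Other libraries also ended calls of set-2 over sin-3. Col-99 was at 0.83 without set-2 replicate 2 (0.0132) and was lost without sin-3 replicate 1 (0.097), and col-165 without sin-3 replicate 1 (0.116) or sin-3 replicate 2 (0.0789), and col-165 was not tested without set-2 replicate 2. Col-180 was lost without cfp-1 replicate 3 (0.0508) or sin-3 replicate 2 (0.292). Col-76 was lost without cfp-1 replicate 1 (0.053), set-2 replicate 1 (0.0651) or sin-3 replicate 2 (0.0977). Col-53 was lost without cfp-1 replicate 2 (0.0508), set-2 replicate 1 (0.0503), set-2 replicate 3 (0.0744) or WT replicate 2 (0.0533). Col-34 was lost without any library but cfp-1 replicate 1, cfp-1 replicate 2 or set-2 replicate 3, and col-176 without any but cfp-1 replicate 3, set-2 replicate 3, WT replicate 1 or WT replicate 2.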

How the results depend on the processing

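No called member changed direction in any alternative. Of 48 calls of a member in a comparison, 21 held in every leave-one-out refit, and 11 of the 25 calls against WT did. Leaving out each replicate gave 4 to 7 members higher and 1 to 2 lower for cfp-1 over WT, 2 to 8 and 2 to 5 for set-2 over WT, and 2 to 4 and 0 to 6 for sin-3 over WT. Between mutants it gave 4 to 5 higher and 0 to 4 lower for cfp-1 over set-2, 0 to 5 higher for cfp-1 over sin-3, and 3 to 13 higher and 3 to 5 lower for set-2 over sin-3. With 1 sin-3 library left, that library was assumed to vary like the other strains. Over all genes tested, calls in the leave-one-out refits ranged from 1522 to 3615 for cfp-1 over WT and from 660 to 2074 for set-2 over WT.

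With filterByExpr, 9 members were higher over WT in cfp-1 and 8 in sin-3, and 7 in cfp-1 over set-2. With no filter on low counts, 10 were higher in cfp-1 embryos, 7 in sin-3 and 5 lower in set-2 over WT, 8 were higher and 5 lower in cfp-1 over set-2, and 17 were higher in set-2 over sin-3. More members were tested in both (61 and 143), so higher counts do not by themselves show a larger share of members called. The genes tested also rose, from 11547 to 12450 with filterByExpr and 18501 with no filter. Calls over WT among all of them were 2953 (cfp-1), 1964 (set-2) and 2998 (sin-3) with filterByExpr. With no filter they were 2958, 2140 and 2913, beside 2777, 1668 and 2906 among the 11547. With DESeq2, 5 were lower in set-2 over WT, 2 lower in cfp-1 over set-2 and 1 higher in cfp-1 over sin-3, and the cause was not tested. It ended 8 of the 48 calls, those of col-2, col-38 and col-104 in set-2 over WT, col-84 in sin-3 over WT, col-68 in cfp-1 over set-2, and col-34, col-53 and col-176 in set-2 over sin-3. It gave no adjusted p for 23 members in cfp-1 over sin-3, col-8 and col-104 among them. With upper-quartile factors, 2 were lower in cfp-1 over set-2, and the median of all genes in set-2 over WT was 0.11. With only the strains compared, 4 were higher in set-2 over WT and 0 lower in cfp-1 over set-2. This fit ended 10 of the 48 calls. Against WT they were col-2, col-34, col-38 and col-104 in set-2. Between mutants they were col-68 in cfp-1 over set-2 and col-34, col-53, col-88, col-165 and col-180 in set-2 over sin-3. At an adjusted p under 0.01, 2 were higher in set-2 embryos, 2 higher in sin-3 and 0 lower in sin-3 over WT, 0 lower in cfp-1 over set-2, 1 higher in cfp-1 over sin-3 and 4 higher in set-2 over sin-3.

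Same-numbered libraries did not steadily deviate together (correlations of -0.43 to 0.45 over 15 pairs, 7 over 0.1), and the numbers were not taken as pairs. By the number in the title the correlations were -0.39 to 0.32 over 6 pairs, 2 over 0.1. Deviations from a strain's own mean sum to 0 over its few libraries, so these correlations cannot decide whether libraries shared a batch. With the replicate block 3 members were lower in cfp-1 over set-2, col-68 not among them, and no other count moved by over 1.5 times. This block ended 6 of the 48 calls, those of col-52 in cfp-1 over WT, col-38 and col-104 in set-2 over WT, col-68 in cfp-1 over set-2, col-104 in cfp-1 over sin-3 and col-53 in set-2 over sin-3. With a replicate block by the number in the title, 0 members were called in any comparison. Against WT only 7 of all genes tested were called in cfp-1 embryos, 25 in set-2 embryos and 0 in sin-3. In that block WT replicate 3 and sin-3 replicate 2 each stood alone, and sin-3 shared no title number with WT. The fit had almost as many terms as libraries, so its lack of calls cannot decide whether the calls hold.

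At a limit of 1 count, the mean number of members detected was 111 (cfp-1), 113 (set-2), 102.5 (sin-3) and 97 (WT), and at 10 counts 50.3, 50.7, 38.5 and 39.7. Without col-99 the mean summed level was 119, 147, 95.3 and 99.3 CPM in the same order. At the depth of the shallowest library the mean number was 69.4 in set-2 embryos and 55.9 in WT. Leaving out each library gave means of 75.0 to 82.5, 78.0 to 83.0, 57.0 to 68.0 and 60.5 to 64.5 members and 146 to 169, 184 to 236, 118 to 121.04 and 130.1 to 169 CPM in the same order.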

Other observations

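The tested neighbours of col genes called against WT were called in 6 of 7 cases in cfp-1, 3 of 11 in set-2 and 5 of 10 in sin-3, where 24.0%, 14.4% and 25.2% of all genes tested were called, with 4, 2 and 3 of them in the direction of the col gene. K03B8.11, the right neighbour of col-155 on chromosome V, was higher than in WT in every mutant, with log2 fold changes of 1.15 for cfp-1, 0.97 for set-2 and 1.01 for sin-3 (edgeR adjusted p = 0.00402, 0.0139 and 0.0117). The homeobox gene ceh-17, the left neighbour of col-52 on chromosome I, was higher in cfp-1 (1.56, 0.0439) and sin-3 (2.37, 0.00861) and at -0.03 in set-2 (0.976). ZK1010.8, the right neighbour of col-97 on chromosome III, was lower in set-2 (-1.17, 0.0206). Some went against their col gene, with C52D10.3 beside col-138 lower in sin-3 (-0.84, 0.0324), ndc-80 beside col-2 lower in cfp-1 (-0.37, 0.0326) and Y49F6B.9 beside col-71 higher in sin-3 (0.60, 0.0088). In cfp-1 Y49F6B.9 was lower (-0.59, 0.00633), as col-71 was. The other neighbour of col-71, Y49F6B.2, was lower in cfp-1 (-0.59, 0.0022) and sin-3 (-0.83, 0.000815). The gene ceh-8 beside col-63 was not called in any mutant, at -0.67, 0.23 and -0.74, and rpl-5 beside col-38 was lower in all mutants, at -0.50, -0.53 and -0.80 (0.00909, 0.0119 and 0.00177), where col-38 was called higher in cfp-1 and set-2. These neighbours were looked at after the calls were known, and no test of neighbouring genes as a group was made.

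Without the filter on low counts, col-137 was called higher over WT in cfp-1 and sin-3, with 4, 17 and 26 counts in cfp-1 embryos, 0, 0 and 3 in set-2 libraries, and 17 and 18 in sin-3, against 1, 0 and 4 in WT. It was not called in set-2 over WT (log2 fold change -0.90, adjusted p = 0.696). Col-158 had 14, 15 and 14 counts in cfp-1 embryos, 17, 17 and 15 in set-2 libraries, and 1 and 4 in sin-3, against 6, 4 and 4 in WT. It was called higher over WT in cfp-1 (1.63, adjusted p = 0.0264) and set-2 (1.57, 0.0386).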
